A study of Homo sapiens with 6 samples.

Results

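The genes described here are the D-type cyclins, the kinases they activate, inhibitors of those kinases and the pocket proteins they phosphorylate. The list held 10 genes, CCND1, CCND2, CCND3, CDK4, CDK6, CDKN1B, CDKN2C, CDKN2D, RB1 and RBL1. Of these, 9 were measured by a probe set naming no other gene, among 18377 genes measured in that way. CDKN2C was not analysed here. The list was chosen by the difference between the 2 labels on these same arrays, with CCND1 and CCND2 among the largest differences of the table, so the values of its genes are given as a description, with no test.

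The arrays were Affymetrix HuGene 1.0 ST chips, hybridised with RNA from a human line overexpressing BAHD1, a heterochromatin factor, and from its isogenic control, with 3 arrays for each. Both lines derive from a Flp-In derivative of HEK293 with a single FRT site for Flp recombinase. HEK293 is an established line made from human embryonic kidney cells with adenovirus DNA, and it carries the viral E1A protein, which binds pocket proteins. The comparison asks which transcripts change when BAHD1 is overexpressed.

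In HEK-BAHD1, 1 copy of the BAHD1 cDNA sits at the FRT site under the constitutive cytomegalovirus promoter. In HEK-CT, the labels describe a β-galactosidase insert that is out of frame, whereas the study's methods describe an empty vector. Both lines were pools of stable transfectants kept in hygromycin, and the replicates were separate flasks of 1 pool per line, so the errors and p-values below measure the spread between cultures of 1 pool. The study states a later passage for HEK-BAHD1 replicate 2 than for the control and HEK-BAHD1 replicate 1. It states none for HEK-BAHD1 replicate 3, and it does not say whether these numbers are those of the arrays.

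The BAHD1 probe set went against the labels. The log2 signal of its probe set was 10.06, 9.81 and 9.93 on the arrays labelled HEK-CT, and 6.75, 7.0 and 6.76 on those labelled HEK-BAHD1. The difference was -3.10 on the log2 scale (SE 0.09, limma adjusted p = 3.12e-05), the reverse of what the labels state. Whether this probe set detects the transcript of the integrated cDNA was not tested. The study measured BAHD1 mRNA by RT-QPCR and BAHD1 protein by immunoblot as higher in HEK-BAHD1, as labelled. The study's list of chromosome X genes that are lower in HEK-BAHD1 names IRS4, GPM6B and TENM1 (as ODZ1), which were higher on the arrays labelled HEK-BAHD1 here. GPM6B and TENM1 were met only as genes most like CCND1 and CCND2, so that choice fixed their direction. The other genes of the study's list are not described here, so nothing about the labels is read from these genes. Every direction given below is that of the labels, and each would turn if the labels were exchanged. Array medians lay between 5.46 and 5.56. The mean signal of 12 genes typical of HEK293 was 8.78 to 8.82 on the arrays labelled HEK-CT and 8.90 to 8.93 on those labelled HEK-BAHD1, where 3 of the 12 (NEFM, IRS4 and NEFL) were called higher and VIM was called lower. The mean of 14 markers of fibroblasts, lymphoid cells, liver and macrophages was 4.51 to 4.58 and 4.41 to 4.50, with COL3A1 and CD68, 2 of the 14, called lower. The part of these shifts in the differences below was not tested. The calls of both marker lists are to be read beside the shares over all tested probe sets given below. In a bulk sample, fewer cells of a type and less RNA per cell cannot be told apart.

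In the first gap phase of the cell cycle, D-type cyclins accumulate in response to growth signals and bind CDK4 or CDK6. The active kinases phosphorylate the pocket proteins, which otherwise hold E2F transcription factors in an inactive state, and the freed E2F factors drive genes for DNA replication. CDKN2 proteins bind CDK4 and CDK6 directly, and CDKN1B, also known as p27, binds complexes of cyclins with their kinases.

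CCND1 and CCND2, 2 of the 3 D-type cyclins, were higher on the arrays labelled HEK-BAHD1, and CCND3 was slightly lower. CDKN1B was lower, whereas the values for both kinases, CDKN2D, RB1 and RBL1 differed by less than 0.2 on the log2 scale. A gene, here and above, was called when the limma adjusted p was under 0.05 and the medians of the labels differed by over 0.2. By this rule, 2 of the 9 genes were higher and 2 were lower, where the same rule gave 6.79% of the 21062 tested probe sets higher and 6.39% lower. These were 1430 and 1345 probe sets, and 1052 and 1823 when each array was centred on its own median. In 8 of the 9, the 3 values of one label all lay above the 3 of the other, as they did in 33.6% of all tested probe sets. Since the genes were chosen on this contrast, nothing is read from these counts. Precision is limited by the number of arrays.

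**Figure D1:**
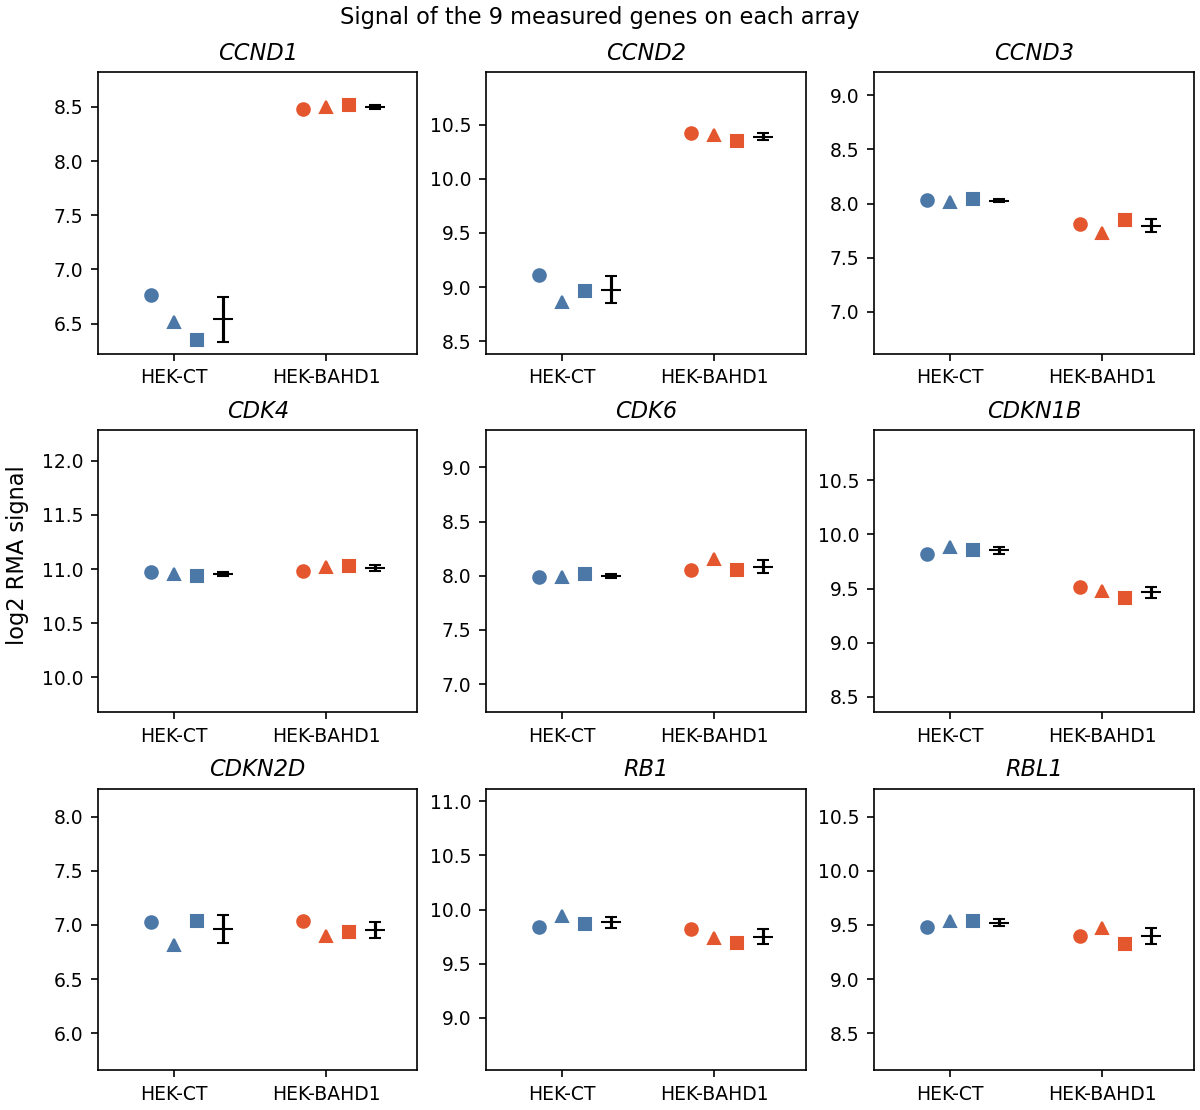
Log2 RMA signal of the 9 measured genes on each array, 1 panel per gene, with a vertical axis of the same length in every panel. Circles, triangles and squares are replicates 1, 2 and 3, and the bar beside them is the mean ± SD (n = 3). CCND1 and CCND2 stand higher on all 3 arrays labelled HEK-BAHD1, CDKN1B and CCND3 stand lower, and CDKN2D overlaps between labels.

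CCND1 encodes cyclin D1, a partner of CDK4 and CDK6. Its log2 signal was 6.76, 6.51 and 6.35 on the arrays labelled HEK-CT and 8.48, 8.50 and 8.52 on those labelled HEK-BAHD1. All 3 values labelled HEK-BAHD1 lay above those labelled HEK-CT, with a gap of 1.72 between the nearest arrays. The means were 6.54 ± 0.207 and 8.50 ± 0.02 (SD, n = 3), so the spread was wider among the arrays labelled HEK-CT. The difference was 1.96 on the log2 scale (SE 0.10, 95% interval 1.73 to 2.19), or 3.89-fold. By absolute difference, CCND1 ranked 4 among the 21062 probe sets.

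CCND2 encodes cyclin D2, which binds the same kinases. Its log2 signal was 9.11, 8.86 and 8.96 on the arrays labelled HEK-CT and 10.42, 10.40 and 10.35 on those labelled HEK-BAHD1. Again the labels did not overlap, and the nearest arrays were 1.24 apart. The difference was 1.41 (SE 0.07, 95% interval 1.24 to 1.58), or 2.66-fold, and it ranked 14. Leaving out any 1 array kept the difference between 1.87 and 2.07 for CCND1, and between 1.35 and 1.48 for CCND2.

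CCND3, which encodes cyclin D3, moved the other way. Its log2 signal was 8.03, 8.01 and 8.04 on the arrays labelled HEK-CT and 7.81, 7.73 and 7.85 on those labelled HEK-BAHD1, so the labels stood 0.16 apart. The difference was -0.23 (SE 0.06, 95% interval -0.36 to -0.10). This call was fragile, since it was lost when any 1 of the 6 arrays was left out, with differences of -0.26 to -0.20. By absolute difference, CCND3 ranked 3971 of 21062. The differences of the D-type cyclins thus varied in size, and the opposite sign rests on CCND3 alone.

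**Figure D2:**
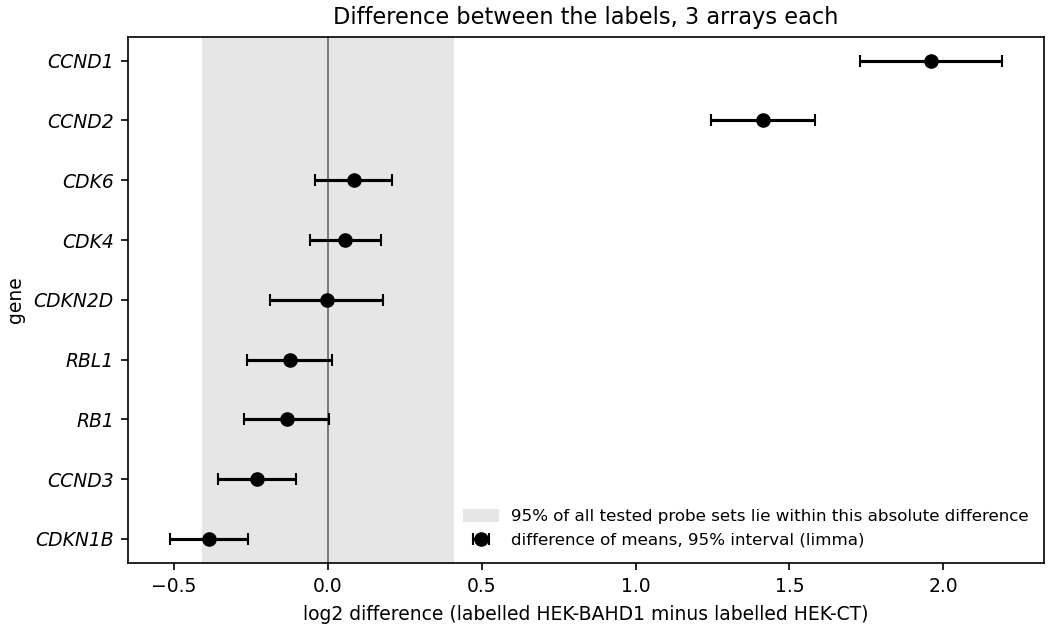
Difference of mean log2 signal between the labels for each of the 9 genes, with the 95% interval from limma (3 arrays per label). The grey band spans the absolute difference of 0.41 within which 95% of all tested probe sets lie, and only the points of CCND1 and CCND2 fall outside it.

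The signal of the kinases differed little between the labels. CDK4, a catalytic partner of the D-type cyclins, gave 10.97, 10.95 and 10.94 on the arrays labelled HEK-CT and 10.98, 11.02 and 11.03 on those labelled HEK-BAHD1. The labels did not overlap, but by 0.01 only, and the interval of the difference was -0.06 to 0.17. CDK6, the other partner, gave 7.99, 7.99 and 8.02 against 8.05, 8.15 and 8.05. These arrays were 0.03 apart, with an interval of -0.04 to 0.21.

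RefSeq promoter windows were matched for 7 of the 9 measured genes, in 10 windows of the 250 bases before a start, and none was matched for CCND1 or CCND2. The window of CDK4 is shown because it was the only one of the 10 with the E-box CACGTG, the hexamer recognised by MYC and related factors. It held 3 copies, which begin at 216, 196 and 101 bases before the start. At least 1 copy, searched on both strands, was found in 6.34% of all 35116 windows, and at least 3 in 0.0797%. The sequence is from GRCh38.p14, chr12:57752311-57752560, minus strand, written 5′ to 3′ with the E-boxes in capitals.
CDK4: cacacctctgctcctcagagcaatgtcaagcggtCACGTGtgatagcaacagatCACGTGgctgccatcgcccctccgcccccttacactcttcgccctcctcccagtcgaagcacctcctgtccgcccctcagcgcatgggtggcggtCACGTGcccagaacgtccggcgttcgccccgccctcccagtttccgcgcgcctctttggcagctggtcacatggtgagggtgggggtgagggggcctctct

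CDKN1B encodes p27, which binds and restrains cyclin E-CDK2 and takes part in the assembly of cyclin D-CDK4. Its log2 signal was 9.82, 9.88 and 9.86 on the arrays labelled HEK-CT and 9.51, 9.48 and 9.41 on those labelled HEK-BAHD1. The labels did not overlap, and the nearest arrays were 0.31 apart. The difference was -0.39 (SE 0.05, 95% interval -0.51 to -0.26), or 1.31-fold lower, and ranked 1213 of 21062. Leaving out any 1 array kept it between -0.41 and -0.36.

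The window of CDKN1B is shown because, after CCND1 and CCND2, its absolute difference was the largest of the 9 genes. It held 2 CCAAT boxes, the pentamer bound by NF-Y, which begin at 174 and 50 bases before the start. Between them, 71 bases before the start, it held 1 GGGCGG, the hexamer of SP1. At least 2 CCAAT boxes on either strand were found in 9.53% of all windows, and at least 1 GGGCGG in 42.6%. The sequence is from GRCh38.p14, chr12:12717118-12717367, plus strand, with these motifs in capitals.
CDKN1B: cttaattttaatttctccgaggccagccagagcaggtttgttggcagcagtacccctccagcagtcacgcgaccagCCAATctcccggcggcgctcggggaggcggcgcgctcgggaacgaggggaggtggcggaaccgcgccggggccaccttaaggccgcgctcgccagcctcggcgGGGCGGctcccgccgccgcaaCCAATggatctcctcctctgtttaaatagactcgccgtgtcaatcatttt

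CDKN2D encodes p19, an inhibitor of CDK4 and CDK6. It gave 7.03, 6.81 and 7.04 on the arrays labelled HEK-CT and 7.04, 6.90 and 6.93 on those labelled HEK-BAHD1. It was the only one of the 9 genes whose labels overlapped, and the interval of the difference was -0.19 to 0.18. Of the other inhibitors and pocket proteins, 6 were measured outside the list, and 0 were called higher and 1 lower. The same rule gave 6.79% of all tested probe sets higher and 6.39% lower. CDKN3, a phosphatase that acts on CDK2, gave 9.26, 9.33 and 9.27 against 8.98, 8.93 and 8.89, a difference of -0.35 (SE 0.05, limma adjusted p = 0.00746). The differences of CDKN1A, CDKN1C, CDKN2A and CDKN2B, which all encode kinase inhibitors, were -0.09, 0.19, 0.02 and 0.01, and none of these 4 was called.

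RB1, the retinoblastoma protein, gave 9.84, 9.94 and 9.87 on the arrays labelled HEK-CT and 9.82, 9.74 and 9.69 on those labelled HEK-BAHD1. The nearest arrays were 0.02 apart, and the interval of the difference was -0.27 to 0.01. RBL1, the pocket protein p107, gave 9.48, 9.54 and 9.54 against 9.40, 9.47 and 9.32. The labels were 0.01 apart, with an interval of -0.26 to 0.01. Neither gene was called, and for both the mean was lower on the arrays labelled HEK-BAHD1. RBL2, the related pocket protein p130, differed by 0.14 and its labels overlapped.

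The window of RBL1 is shown because it was the only one of the 10 with E2F motifs, the sites at which the factors held by pocket proteins bind. The motif was searched as TTTCCCGC, TTTCGCGC, TTTGCCGC or TTTGGCGC on both strands, and 2.79% of all windows held at least 1 copy and 0.122% at least 2. The 2 copies in RBL1 begin at 26 and 16 bases before the start. The sequence is from GRCh38.p14, chr20:37095998-37096247, minus strand, with both copies in capitals.
RBL1: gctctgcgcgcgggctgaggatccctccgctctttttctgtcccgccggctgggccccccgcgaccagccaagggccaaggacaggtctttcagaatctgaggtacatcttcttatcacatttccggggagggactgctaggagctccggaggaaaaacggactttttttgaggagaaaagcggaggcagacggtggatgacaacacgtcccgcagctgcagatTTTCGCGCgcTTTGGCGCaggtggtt

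GGGCGG was in 6 windows, of CCND3, CDK4, CDK6, CDKN1B and CDKN2D, and CCAAT was in 4, of CCND3, CDKN1B and CDKN2D. The AP-1 site TGANTCA was in the window of RB1 alone (6.57% of all windows), and the TEAD site GGAATG was in 1 window of CCND3 (11.9%). The only window matched for RB1 was chr13:48476200-48476449, with 36.8% GC against a median of 58% over all windows. Whether it lies at the main start of RB1 was not checked, and no other RB1 start was searched. The CRE site TGACGTCA and the TCF/LEF sites CTTTGAT and CTTTGAA were in none. These matches describe the letters of the windows, and binding was not measured here.

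The question of whether other genes of the cell cycle moved with the D-type cyclins was addressed with 8 lists of genes outside the 10. Together they held 167 genes, of which 160 were measured. Of these, 7 were called higher and 14 lower, where the same rule gave 6.79% of all tested probe sets higher and 6.39% lower. Their median difference was -0.05, against 0.00 over all tested probe sets. The calls of each list below are to be read beside these shares. Centring each array on its own median gave 5 higher and 24 lower. At an unadjusted limma p under 0.05, 11 of the 160 were higher and 47 lower. Over all 21062 tested probe sets, 3045 were higher and 3118 lower at that threshold. The unadjusted counts of the lists below are to be read beside these. In no list did any gene differ as much as CCND1 or CCND2, but these were chosen on this contrast, so nothing is read from that. Of the 22 called genes named from these lists and from the chromosomal neighbours below, 6 to 10 were no longer called when 1 array was left out.

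**Figure D3:**
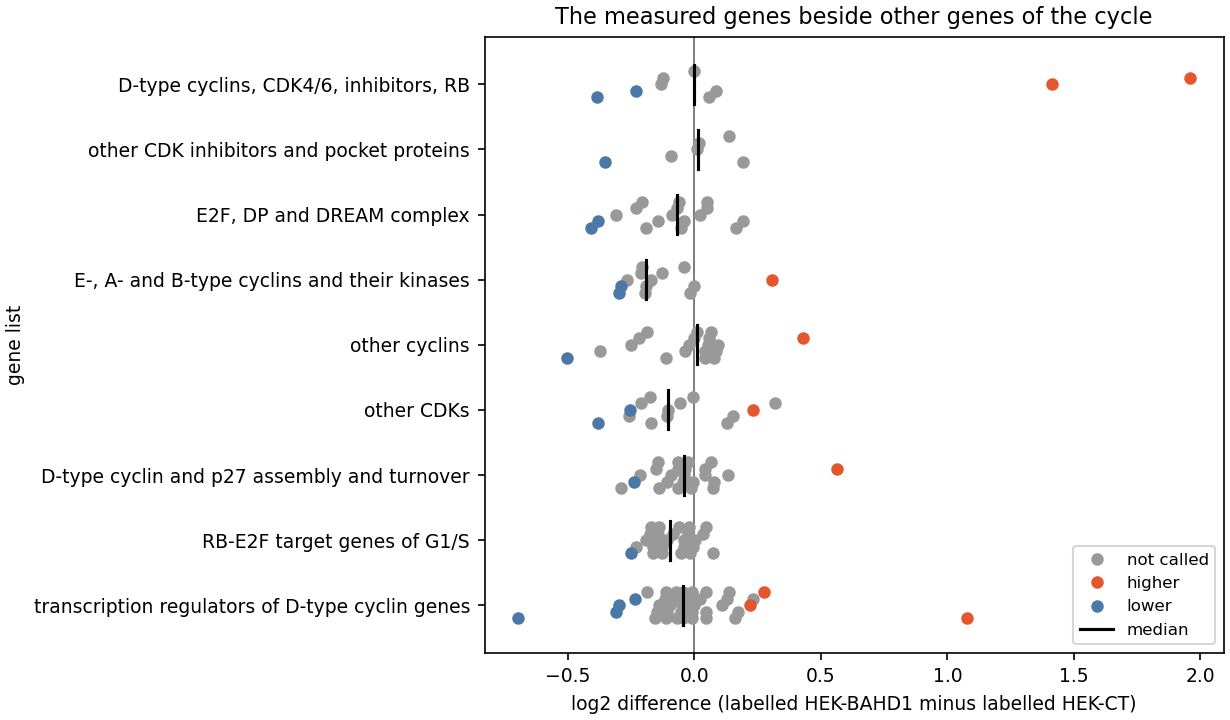
Difference of mean log2 signal between the labels for the 9 genes and for the measured genes of 8 other lists, 1 point per gene, spread vertically for legibility. Colours mark the call, and black lines are the list medians, which lie between -0.19 and 0.01. CCND1, CCND2 and MYC are the points above 1.

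Among E2F factors, their DP partners and the DREAM complex, which includes a pocket protein, 17 genes were measured, 0 were called higher and 2 lower. LIN54, the DNA-binding subunit of the MuvB core of DREAM, gave 7.76, 7.85 and 7.70 against 7.39, 7.50 and 7.19, a difference of -0.41 (SE 0.09, limma adjusted p = 0.023). LIN52, another MuvB subunit, differed by -0.38 (SE 0.08, limma adjusted p = 0.0186). The labels of both were apart. At an unadjusted p under 0.05, 1 gene of the list was higher and 6 were lower, and the LPE test called 1 higher and 4 lower. Centring each array gave 5 lower and the replicate block 1. The call of LIN54 was lost without replicate 1 or 2 of HEK-CT or 1 of HEK-BAHD1, and that of LIN52 without HEK-CT replicate 1 or 2 (limma adjusted p of up to 0.0698 and 0.0592).

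Of the E-, A- and B-type cyclins and their kinases, which act after the D-type cyclins, 13 were measured and the list median was -0.19. The 2 cyclins E, partners of CDK2 at entry into DNA replication, moved in opposite directions. CCNE1 gave 8.67, 8.72 and 8.61 against 8.92, 9.0 and 9.0 (difference 0.31, SE 0.06, limma adjusted p = 0.0141). CCNE2 gave 9.47, 9.60 and 9.46 against 9.21, 9.25 and 9.20 (difference -0.29, SE 0.06, limma adjusted p = 0.0201). CDC25C, a phosphatase that activates CDK1 at mitosis, differed by -0.30 (SE 0.05, limma adjusted p = 0.0105). The other 10 were not called. At an unadjusted p under 0.05, 1 gene of the list was higher and 8 were lower, and centring each array on its own median gave 1 higher and 5 lower. The call of CCNE1 was lost without HEK-CT replicate 3 (limma adjusted p = 0.0582), and that of CCNE2 without replicate 2 of HEK-CT or 1 or 3 of HEK-BAHD1 (limma adjusted p of up to 0.0618).

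Among 25 cyclins other than the D-type, differences ranged from -0.50 to 0.43. CCNJL, a cyclin J-like gene, was the highest, with 5.62, 5.62 and 5.66 against 6.0, 6.04 and 6.15 (difference 0.43, SE 0.06, limma adjusted p = 0.00483). CCNL1, a cyclin linked to splicing, was the lowest, with 8.78, 8.63 and 8.72 against 8.29, 8.31 and 8.02 (difference -0.50, SE 0.09, limma adjusted p = 0.012). Of 19 cyclins outside the D, E, A and B types, 1 was called lower, and 3 by limma with a trend. Among 14 kinases in the list of other CDKs, CDK5, a kinase best known in neurons, differed by 0.23 (SE 0.06, limma adjusted p = 0.0384). CDK16 differed by -0.38 (SE 0.06, limma adjusted p = 0.00862). CDK11A, which has a near-identical copy, CDK11B, so that the source of its signal is uncertain, differed by -0.26 (SE 0.06, limma adjusted p = 0.0277). The calls of CDK5 and CDK11A were lost when any 1 array was left out (limma adjusted p of up to 0.113 and 0.0933).

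Of 24 genes for the assembly and turnover of D-type cyclins and p27, 1 was called higher and 1 lower, with 2 lower by the LPE test and 0 with the replicate block. USP2, a deubiquitinase of cyclin D1, gave 4.60, 4.64 and 4.74 against 5.10, 5.35 and 5.22 (difference 0.56, SE 0.08, limma adjusted p = 0.00483). AMBRA1, the substrate receptor of a ubiquitin ligase for D-type cyclins, gave 7.37, 7.50 and 7.51 against 7.28, 7.17 and 7.21 (difference -0.24, SE 0.06, limma adjusted p = 0.0441). The labels of both genes were apart, but every USP2 signal lay below the array medians given above. The call of AMBRA1 was lost when any array but HEK-CT replicate 1 was left out (limma adjusted p of up to 0.138).

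Of 26 target genes of RB and E2F, which include replication factors, 0 were called higher and 1 lower. TYMS, the enzyme for thymidylate, gave 11.43, 11.40 and 11.40 against 11.15, 11.14 and 11.19 (difference -0.25, SE 0.05, limma adjusted p = 0.0187). At an unadjusted limma p under 0.05, 0 were higher and 11 were lower, beside 3045 and 3118 of the 21062 probe sets tested. The LPE test called 0 higher and 3 lower. The replicate block gave 0 lower. The call of TYMS was lost without replicate 1 or 3 of HEK-CT or 1 or 2 of HEK-BAHD1 (limma adjusted p of up to 0.0639). The differences in this list ranged from -0.25 to 0.07, with a median of -0.10.

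Of 41 transcription regulators of D-type cyclin genes, 3 were called higher and 4 lower. The LPE test and the replicate block each gave 1 higher and 2 lower, and leaving out 1 array gave 1 to 2 higher and 2 to 3 lower. MYC, a factor that promotes growth and division, stood apart in the list. It gave 8.16, 8.03 and 8.01 on the arrays labelled HEK-CT and 9.15, 9.15 and 9.13 on those labelled HEK-BAHD1. The difference was 1.08 (SE 0.06, limma adjusted p = 0.000252), or 2.11-fold, and no array of one label overlapped the other. MYC was called in all 16 alternatives, with an adjusted p of up to 0.00304.

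The other calls of this list were smaller. FOS, an AP-1 subunit, gave 6.82, 7.0 and 7.10 against 6.09, 6.52 and 6.22 (difference -0.70, SE 0.12, limma adjusted p = 0.0109). ATF2, which binds CRE sites, differed by -0.31 (SE 0.05, limma adjusted p = 0.00889). TEAD1, a partner of the coactivator YAP, differed by -0.30 (SE 0.07, limma adjusted p = 0.0317). The call of TEAD1 was lost when any array but HEK-CT replicate 2 was left out (limma adjusted p of up to 0.085). The other 3 calls of the list lay between -0.24 and 0.28.

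The genes beside CCND1 and CCND2 were compared to describe whether the difference extended along the chromosome. Of the 10 measured genes nearest to CCND1 in RefSeq order on chromosome 11, 5 on each side, differences ranged from -0.23 to 0.34. TPCN2, a lysosomal channel, gave 6.94, 6.95 and 6.82 against 7.17, 7.29 and 7.26 (difference 0.34, SE 0.06, limma adjusted p = 0.0144). LTO1, the next gene after CCND1, gave 7.26, 7.32 and 7.44 against 7.14, 7.09 and 7.10 (difference -0.23, SE 0.06, limma adjusted p = 0.0495), and this call was lost when any 1 array was left out. The other 8, which include FGF19, FGF4 and FGF3, were not called. The call of TPCN2 was lost without HEK-CT replicate 3 (limma adjusted p = 0.0536), and that of LTO1 reached an adjusted p of 0.151.

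Beside CCND2 on chromosome 12, differences ranged from -0.32 to 0.23. RAD51AP1, which acts in recombination, gave 9.81, 9.96 and 9.92 against 9.62, 9.57 and 9.53 (difference -0.32, SE 0.06, limma adjusted p = 0.0153). FERRY3, a subunit of an endosomal complex that carries mRNA, differed by -0.29 (SE 0.06, limma adjusted p = 0.0237). TIGAR, the next gene after CCND2, gave 8.34, 8.44 and 8.51 against 8.26, 8.29 and 8.17, a difference of -0.19 that was not called. The call of RAD51AP1 was lost without replicate 3 of HEK-CT or 3 of HEK-BAHD1, and that of FERRY3 without replicate 2 or 3 of HEK-CT or 1 or 3 of HEK-BAHD1 (limma adjusted p of up to 0.0583 and 0.0759). No neighbour of either cyclin gene differed by more than 0.34.

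**Figure D4:**
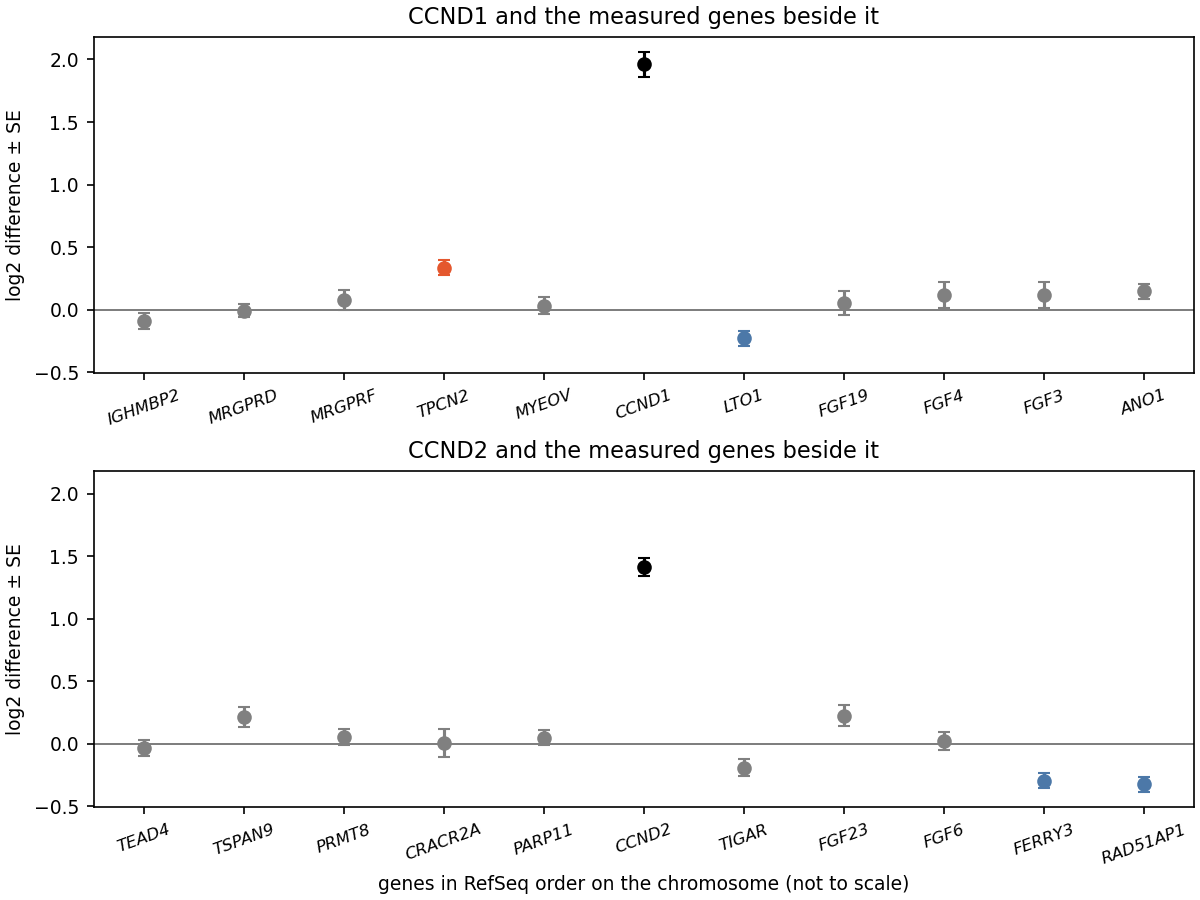
Difference of mean log2 signal between the labels (± SE) for CCND1, CCND2 and the 5 measured genes on each side of them, in RefSeq order and not to scale. Black points are the cyclin genes, red and blue points are neighbours called higher and lower, and grey points were not called. The neighbours lie between -0.32 and 0.34.

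The genes whose pattern was most like that of a cyclin gene were found over all 6 arrays, as the root mean square distance between values centred on each gene's mean. For CCND2 these were GPM6B, CDH3, GPRC5B, LGI2 and TENM1, at distances of 0.0508 to 0.127 on the log2 scale. For CCND1 they were TENM1, PXDN, CDH3, CCND2 and GPM6B, at distances of 0.232 to 0.30. CCND2 was thus the fourth nearest to CCND1, and GPM6B, CDH3 and TENM1 were near to both. The differences of these genes between the labels ran from 1.26 for LGI2 to 2.34 for PXDN. The contrast that chose CCND1 and CCND2 enters these distances, so nothing is read from this closeness.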

How the data were processed

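Total RNA from 3 cultures per line was hybridised to HuGene 1.0 ST arrays. The authors made the deposited log2 values with RMA, which corrects background, normalises between arrays and summarises probes into probe sets. No RMA version is given in the sources used here. The table held 28869 probe sets, of which 19310 name 1 gene and 1752 several; the 21062 naming a gene were tested. Symbols were updated by gene ID to RefSeq (GRCh38.p14). For each gene, the probe set naming it alone with the highest mean was used.

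The main test was limma 3.58.1 (lmFit and eBayes, R 4.3.3) with Benjamini-Hochberg adjustment over all tested probe sets, an adjusted p under 0.05 and the study's threshold of 0.2 on the difference of medians. The study's own test, LPE, was rewritten (100 intensity bins, spline with 10 degrees of freedom) and used as an alternative. Both were tested on simulated data. Named genes were the 10 of the list, up to 4 called genes of each other list with the largest absolute difference, the neighbours of CCND1 and CCND2, the genes most like them and BAHD1. Genes of a list named without a call were added after their values were seen. The genes and lists were chosen with earlier results of these data known. Protein sequences were not used here.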

Additional observations from a re-analysis of the deposited data

How the results depend on the processing

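The 16 alternatives covered scaling, filters on probe sets, the test, the replicate block and each array left out. In all of them CCND1 and CCND2 stayed past the call rule as higher and CDKN1B as lower, which is a description and no sign of stability, since the genes were chosen on this contrast. No called result changed sign. CCND3 was not called when quantile normalization was applied again, when all probe sets were tested, with the LPE test or with the replicate block, so that 1 gene of the 9 was called lower in each, and also when any 1 array was left out. Leaving out 1 array gave 806 to 938 probe sets higher and 581 to 937 lower, and 3 to 5 genes of the other lists higher and 7 to 10 lower. Arrays centred on their own medians gave 24 of these genes lower. The replicate numbers were not used as pairs in the main test. Same-numbered arrays correlated at -0.0772, 0.0744 and -0.0384 in their deviations from the means of their labels. Arrays of different numbers correlated at -0.136 to 0.176. With 3 arrays per label, these values cannot show whether the samples were paired. With the replicate block, 829 probe sets were lower, and 4 genes of the other lists were higher and 8 lower. Of the 22 called genes of other lists and neighbours, the replicate block lost 7, testing all probe sets lost CDK5, AMBRA1, TEAD1 and LTO1, the LPE test lost TEAD1 and LTO1, and centring lost CDK5. With 3 arrays per label from 1 pool each, small differences such as those of RB1, RBL1, CDK4 and CDK6 could not be resolved, and a p that misses the threshold does not show that values did not differ.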
